A study of Mus musculus with 6 samples.

Results

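Cleavage clusters are short stretches of the genome where the 3′ ends of polyadenylated RNA fall close together on the same strand. In mouse embryonic stem cells, 278 abundant cleavage clusters stood at no more than 50% of their untreated level in every library from cells given an antisense morpholino oligonucleotide (AMO). They were chosen from 931675 clusters outside chromosome M, made by joining same-strand positions at most 24 nt apart. A cluster was taken when it had at least 10 CPM (reads scaled to a library total of 1000000) in both untreated libraries. In addition, each of the 4 AMO libraries had to be at or under 50% of the lower untreated value. Abundant clusters, those at or above the 10 CPM minimum in both untreated libraries, numbered 9126, so the halved clusters made up 3.05% of them. The other 8848 abundant clusters served for comparison. A contrast set with the opposite pattern, whose lowest AMO value was at least 2 times the higher untreated value, held 18028 clusters.

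The study sequenced 3′ ends of poly(A)-selected RNA from the V6.5 line, pluripotent cells of mixed C57BL/6 and 129 background. There were 2 replicates each of cells given an AMO against U1, of cells given a scrambled AMO, and of cells with no treatment. AMO conditions followed Kaida et al., per the labels, which state neither dose nor time. The comparison that asks about U1 itself is U1 AMO against scrambled AMO, since both groups received an oligonucleotide.

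U1 is a small nuclear ribonucleoprotein that base-pairs with 5′ splice sites. It is also known to keep the cleavage and polyadenylation machinery from acting at signals inside transcribed regions. That machinery recognises a hexamer a short way upstream of the cleavage position, most often AATAAA, and then cuts the RNA and adds the poly(A) tail. An abundant cleavage cluster generally marks the 3′ end of messages that a cell makes in quantity.

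The deposited files give such a hexamer for every listed position, and these are the only sequences shown, because they are the signals through which the halved clusters are made. In capitals is the whole hexamer, read 5′ to 3′ as DNA on the strand of the RNA, at the position with the most reads in each cluster.
The canonical signal, at 182 of 278 halved clusters: AATAAA
Its most frequent variant, at 58: ATTAAA
The variant at 16: TATAAA
The variant at 9: AGTAAA
The variant at 4: AATATA
The remaining 9 halved clusters carried 6 further kinds, at 1 or 2 clusters each, among them AAATAA at 2.

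Depth ranged from 15752080 reads (U1 AMO replicate 1) to 62257923 reads (scrambled AMO replicate 2) per library. Read names placed replicate 1 of both AMO groups in the same run and replicate 2 of both in another, in different lanes, while the untreated libraries were sequenced in 2 further runs, separate from each other. Treatment and run therefore cannot be told apart wherever AMO libraries are set against untreated ones. No molecular identifiers are described. The intervals given with shares treat clusters as independent draws and do not cover the spread between libraries. The values are shares of each library, so fewer cells and less RNA per cell cannot be told apart. Positions carry no gene names in the files and no annotation of their build, mm9, was used here, so clusters are named by position and the markers of the cells were not examined.

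Taken as a set, the halved clusters accounted for 0.595% and 0.601% of reads with the U1 AMO and 0.696% and 0.675% with the scrambled AMO, against 2.03% and 2.11% in untreated cells. The rule chose these values, so they are a description, and no test was applied to them. Median levels over the 278 clusters were 7.24 and 7.60 CPM with the U1 AMO and 8.73 and 8.49 CPM with the scrambled AMO, against 25.97 and 30.7 CPM in untreated cells. Relative to the untreated mean, the median halved cluster stood at 26.8% and 29.0% with the U1 AMO and at 32.0% in each scrambled AMO library. Other abundant clusters stood at 79.2% and 80.6% with the U1 AMO and at 90.7% and 87.6% with the scrambled AMO. The median log2 ratio of the AMO mean to the untreated mean was -1.73 in the halved clusters and -0.25 over all abundant clusters. With TMM scaling these medians were -1.77 and -0.29. Among abundant clusters the shift thus had the same sign as in the halved clusters, which the rule placed lower. Over all 79917 clusters tested by edgeR the sign was opposite. Their median log2 difference from untreated cells was 0.23 for the U1 AMO and 0.15 for the scrambled AMO.

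**Figure D1:**
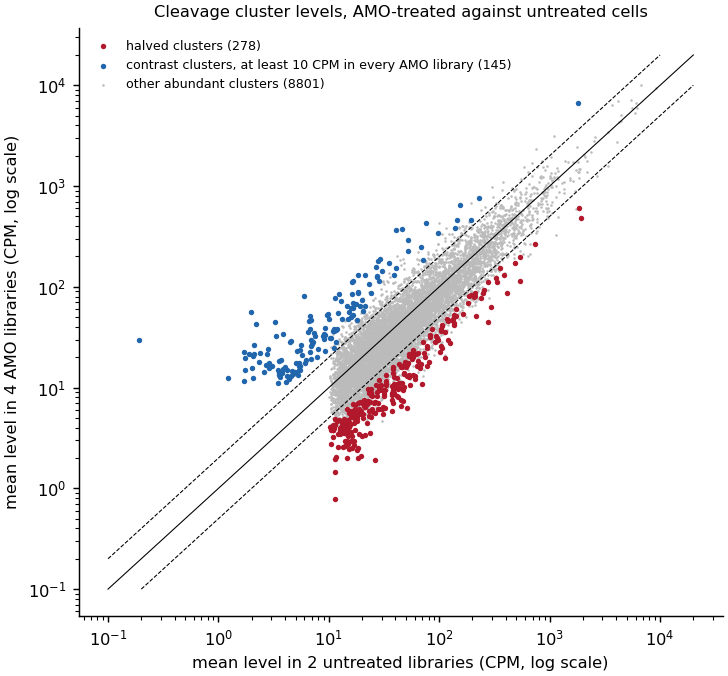
Mean level over the 4 AMO libraries (vertical axis, CPM, log scale) against the mean over the 2 untreated libraries (horizontal axis, CPM, log scale), a point per cluster. Red points are the 278 halved clusters, blue the 145 contrast clusters with at least 10 CPM in every AMO library and grey the other 8801 abundant clusters; the solid line marks equal levels and the dashed lines a 2-fold difference. The halved clusters lie under the lower dashed line along the whole range of untreated levels.

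The 278 clusters covered a wide range of levels. In untreated cells 45 of them averaged at least 100 CPM and 97 averaged under 20 CPM. The ratio of the highest AMO value to the lower untreated value, on which the rule acts, ran from 0.0949 to 0.4999 with a median of 0.431. It was above 0.45 in 114 clusters and at or under 0.25 in 16. The untreated libraries differed from each other by 2-fold or more at 17 of the 278 clusters (6.12%), against 16.6% of the other abundant clusters. The rule works against such differences, because it sets every AMO value against the lower untreated library.

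The most abundant of the halved clusters in untreated cells lay on chromosome 6, at chr6:122677820-122677882 on the minus strand (mm9, as are all coordinates here). It had 579.7 and 307 CPM with the U1 AMO and 664 and 396 CPM with the scrambled AMO, against 1404 and 2412 CPM in untreated cells. On chromosome 11, chr11:98854231-98854277 (minus strand) had 514 and 614 CPM with the U1 AMO and 578 and 724 CPM with the scrambled AMO, against 2229 and 1468 CPM untreated. By the rule the AMO libraries overlapped the untreated ones at neither cluster. At the first, both replicate 1 AMO libraries were above both replicate 2 AMO libraries. Both carried AATAAA, placed 18 nt before the strongest position in the first and 21 nt in the second. The AMO mean was 0.255 of the untreated mean at the chromosome 6 cluster and 0.329 at the chromosome 11 cluster.

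Next in level was chr2:71279537-71279686 (plus strand), the widest of the halved clusters at 150 nt. It had 265 and 239 CPM with the U1 AMO and 317 and 255 CPM with the scrambled AMO, against 794 and 678 CPM in untreated cells. The cluster at chr7:149761391-149761448 (minus strand) had 156 and 105 CPM with the U1 AMO and 112 and 83.9 CPM with the scrambled AMO, against 725 and 352 CPM untreated. Here the untreated libraries differed by just over 2-fold while the AMO libraries were all lower, as the rule requires. The U1 AMO library was above the scrambled AMO library in each run. At chr11:86508093-86508169 (minus strand) the values were 249 and 145 CPM with the U1 AMO and 248 and 151 CPM with the scrambled AMO, against 520.3 and 554 CPM untreated. In that cluster the AMO libraries split by replicate, replicate 1 of both AMOs being the higher, and not by oligonucleotide. All of these 3 clusters carried AATAAA.

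Next came chr6:28376595-28376618 (plus strand), with 115 and 165 CPM with the U1 AMO and 204 and 213 CPM with the scrambled AMO, against 489.6 and 477 CPM in untreated cells. The 3 groups did not overlap there, with the U1 AMO lowest. The cluster at chr13:6580413-6580431 (minus strand, hexamer ATTAAA) had 56.4 and 114 CPM with the U1 AMO and 73.0 and 106 CPM with the scrambled AMO, against 581 and 235 CPM untreated. Its untreated libraries differed by more than 2-fold, and the lower of them set its place in the rule. The cluster at chr11:120820069-120820120 (plus strand) carried the rare hexamer AAATAA, found at 2 of the 278. It had 105 and 116 CPM with the U1 AMO and 130.1 and 173 CPM with the scrambled AMO, against 423 and 356 CPM untreated, and its 3 groups did not overlap either.

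The largest relative differences were in clusters of low to middle abundance. Lowest of all was chr11:33475643-33475659 (plus strand, AATAAA), with 0.952 and 0.604 CPM with the U1 AMO and 0.857 and 0.691 CPM with the scrambled AMO, against 12.8 and 10.04 CPM in untreated cells. Its AMO values rest on 15 and 35 reads with the U1 AMO and 23 and 43 reads with the scrambled AMO, against 495 and 607 reads untreated. The AMO mean was thus 0.0679 of the untreated mean. The second, chr12:8978290-8978310 (plus strand, ATTAAA), had 1.90 and 1.47 CPM with the U1 AMO and 2.50 and 1.80 CPM with the scrambled AMO, against 28.6 and 23.2 CPM untreated. At chr1:93066838-93066880 (plus strand, TATAAA) the values were 1.65 and 1.93 CPM with the U1 AMO and 2.05 and 2.68 CPM with the scrambled AMO, against 15.1 and 23.9 CPM untreated. In these 3 clusters the highest AMO value was at most 0.178 of the lower untreated value, and the U1 AMO and scrambled AMO values lay close together.

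Clusters 4 to 8 by this ratio were more spread in level. The cluster at chr8:47082240-47082272 (minus strand, ATTAAA) was the most abundant, with 12.3 and 9.25 CPM with the U1 AMO and 12.0 and 9.57 CPM with the scrambled AMO, against 67.2 and 72.9 CPM in untreated cells. At chr11:87369318-87369328 (plus strand, AATAAA) there were 5.33 and 6.54 CPM with the U1 AMO and 5.55 and 7.47 CPM with the scrambled AMO, against 41.4 and 60.5 CPM untreated. Replicates of each group differed by less than 2-fold at both. The other clusters of this group were chr4:138084582-138084598 (plus strand), chr2:32988926-32988986 (minus strand) and chr11:4245793-4245821 (minus strand). Their highest AMO values were 0.197, 0.202 and 0.203 of the lower untreated value, in that order.

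At the edge of the rule, the 3 halved clusters nearest to the threshold had ratios of 0.4987 to 0.4999 and the nearest abundant clusters outside it 0.5001 to 0.5008. Just inside, chr19:10271343-10271369 (plus strand) had 39.4 and 37.1 CPM with the U1 AMO and 34.2 and 41.8 CPM with the scrambled AMO, against 83.7 and 87.4 CPM untreated. Just outside, chr6:52496207-52496228 (minus strand) had 35.6 and 31.4 CPM with the U1 AMO and 47.9 and 33.3 CPM with the scrambled AMO, against 95.7 and 141 CPM untreated. The remaining clusters inside were chr9:56344739-56344751 and chr12:73982078-73982108, and those outside were chr7:151034307-151034332 and chr10:117187806-117187822. The ratios ran on across the threshold without a gap.

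No library was left in which to check the halved clusters themselves, since the rule used all of them. Instead, the rule was applied to the libraries of a single replicate number, and the chosen clusters were read in the other replicate. The shares describe the rule, not the halved clusters, which meet the condition in both replicates by construction. Untreated and AMO libraries of a replicate share only a number and no run, so their pairing here is arbitrary. When the rule was applied to replicate 1 alone, it chose 1012 clusters. Of these, 379 (37.5%, 95% Wilson interval 34.5 to 40.5) were also at or under 50% in both AMO libraries of replicate 2. Among all 10139 clusters with the same untreated level, 17.4% met that condition in replicate 2, and among those not chosen 15.1%. In the opposite direction the rule chose 2466 clusters on replicate 2, of which 406 (16.5%, 15.1 to 18.0) met it in replicate 1, against 8.32% of all 10415 and 5.80% of those not chosen. In both directions the chosen clusters met the condition more often than the rest, and most of them did not meet it. Their median log2 ratio in the unused libraries was -0.80 in replicate 2, against -0.18 over all, and -0.33 in replicate 1, against -0.15 over all. The number chosen depended on the untreated library used. Without untreated replicate 1 the full rule gave 1298 clusters, and without untreated replicate 2 it gave 573, against 284 to 395 without any AMO library.

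U1 AMO and scrambled AMO were then compared at the halved clusters, a comparison the rule did not use. Neither direction was called at any of the 278 clusters by edgeR's quasi-likelihood test over 6 libraries. Across all 79917 clusters tested, 0% were called lower and 0.667% higher at an adjusted p under 0.05. Among abundant clusters these shares were 0% and 0.0438%. No halved cluster had an unadjusted p under 0.05 in that test, where 0.0938% of all clusters were lower and 8.79% higher at that level. Of the 9126 abundant clusters, 6 were lower and 50 higher at that level. DESeq2 called 0 halved clusters as well, with 0% of all clusters called lower and 3.87% higher. It called 0% of abundant clusters lower and 0.241% higher. The median log2 difference of the U1 AMO from the scrambled AMO was -0.20 in the halved clusters and -0.18 in the other abundant clusters. In simulated counts this test, over 79917 clusters, found 24% of the 4-fold changes and 100% of the 16-fold ones but 0% of the 2-fold ones, with 21 false calls. The changes were placed at clusters averaging at least 10 CPM over the 6 libraries. Differences of the size seen at the halved clusters are thus below what it can call.

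Within a run the comparison is closer, since both AMO groups were sequenced together. In replicate 1 the median log2 difference of the U1 AMO from the scrambled AMO was -0.24 at the halved clusters and -0.19 at the other abundant clusters. In replicate 2 it was -0.13 in both sets. The U1 AMO was lower in both runs at 166 halved clusters (59.7%), where the background over all abundant clusters was 57.4%, and higher in both at 32 (11.5%), where it was 16.1%. Both U1 AMO values lay below both scrambled AMO values at 94 halved clusters (33.8%), with a background of 27.5%, and above at 9 (3.24%), with a background of 6.19%. These shares are near those of abundant clusters in general. A fit of the 4 AMO libraries with the run as a term called 17 of the 278 lower (6.12%) and 0 higher. The background in that fit was 2.34% lower and 13.4% higher over all clusters. Over the abundant ones it was 10.7% lower and 2.75% higher. Calls were thus no more frequent among the halved clusters than among abundant clusters. Halved clusters had lower levels, for example a median of 7.24 CPM in U1 AMO replicate 1, against 34.5 CPM for other abundant clusters.

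**Figure D2:**
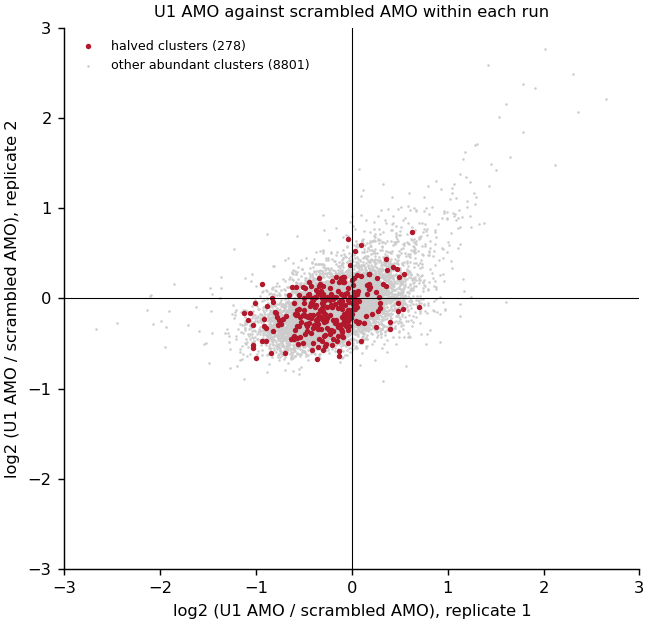
Log2 ratio of U1 AMO to scrambled AMO in the run of replicate 1 (horizontal axis) and in the run of replicate 2 (vertical axis), a point per cluster. Red points are the 278 halved clusters and grey the other 8801 abundant clusters outside the contrast set; 8 clusters, none of them halved, lie beyond the axes, which end at 3. The halved clusters sit inside the grey cloud, with medians of -0.24 and -0.13.

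Among the 17 the largest difference was at chr12:73982078-73982108 (minus strand, ATTAAA). It had 6.28 and 9.22 CPM with the U1 AMO, against 12.6 and 14.5 CPM with the scrambled AMO, and 29.1 and 36.3 CPM in untreated cells. The log2 difference was -0.83 ± 0.19 (SE), with an adjusted p of 0.00123 from edgeR with the run as a term and 0.653 in the fit of 6 libraries, and from 0.366 to 1 under the other alternatives. The cluster at chr11:4122360-4122425 (plus strand, AATAAA) had 24.7 and 37.3 CPM with the U1 AMO, against 50.3 and 53.3 CPM with the scrambled AMO, and 136 and 135 CPM untreated. Its log2 difference was -0.78 ± 0.16 (SE, edgeR adjusted p = 0.000312 with the run as a term and 0.713 over 6 libraries, and from 0.296 to 1 under the other alternatives). In both clusters the U1 AMO libraries were below the scrambled AMO libraries in each run. The scrambled AMO libraries were themselves far below the untreated ones, as the rule requires.

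A further pair on chromosome 7 followed. At chr7:117426946-117426964 (plus strand) there were 3.75 and 6.66 CPM with the U1 AMO, against 7.67 and 9.75 CPM with the scrambled AMO, and 22.7 and 33.6 CPM in untreated cells. At chr7:19476219-19476242 (minus strand) there were 5.27 and 6.23 CPM with the U1 AMO, against 9.46 and 9.44 CPM with the scrambled AMO, and 42.9 and 31.5 CPM untreated. The edgeR adjusted p with the run as a term was 0.0076 for the first and 0.00879 for the second, and under the other alternatives it was at least 0.691 for the first and 0.346 for the second. Of the most abundant halved clusters, chr6:28376595-28376618 and chr11:120820069-120820120 were also called, at log2 differences of -0.62 ± 0.15 and -0.46 ± 0.14 (SE, edgeR adjusted p = 0.00195 and 0.0211). Neither passed in the fit of 6 libraries, where both had an adjusted p of 1.

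In the comparisons that the rule did use, the calls are a description from which nothing is read. For U1 AMO against untreated, edgeR called 186 of the 278 lower, where 0.506% of all clusters were called lower, and DESeq2 called 277, where it called 2.58%. The edgeR count was 14 without U1 AMO replicate 1, 3 without U1 AMO replicate 2 and 49 without untreated replicate 2, where 0.0228%, 0.0162% and 0.101% of all clusters were called lower, in that order. For scrambled AMO against untreated, edgeR called 0 of the 278 and 0% of all clusters. All 278 had an unadjusted p under 0.05 there, where 4.58% of all clusters were lower at that level, and DESeq2 called 261, where it called 1%, but these p-values come from the values that chose the clusters. Both comparisons share the untreated libraries. The median log2 difference from untreated cells was -1.87 for the U1 AMO and -1.64 for the scrambled AMO.

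Poly(A) signals were compared next, a feature the rule did not use. AATAAA or ATTAAA stood at the strongest position of 240 halved clusters (86.3%, 81.8 to 89.9), against 85.9% of the other abundant clusters. AATAAA alone made up 65.5% of halved clusters and 68.1% of other abundant clusters, and ATTAAA 20.9% and 17.8%. TATAAA was at 5.76% of halved clusters (3.57 to 9.14) and 3.13% of other abundant clusters. AAAAAA, which genomic runs of adenine also hold, was at 0 of 278 halved clusters, which allows a share of up to 1.08% (3 counts of 278), and at 0.192% of other abundant clusters. In the contrast set of 18028 clusters AATAAA was at 42.4% and AAAAAA at 4.49%, but those clusters were mostly rare, with a median AMO mean of 0.128 CPM.

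The halved clusters were also set side by side by hexamer. The median ratio of the highest AMO to the lower untreated value was 0.435 at AATAAA, 0.433 at ATTAAA and 0.404 at the 36 clusters with another single-base variant of AATAAA. Untreated medians were 31.3, 30.2 and 16.8 CPM, in that order. The U1 AMO was lower than the scrambled AMO in both runs at 106 of the 182 clusters with AATAAA, 41 of the 58 with ATTAAA and 18 of the 36 with another variant. Over abundant clusters of any hexamer the share was 57.4%. Whether the hexamers differ in this was not tested, and the clusters with another variant also had the lowest untreated median.

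The shape of the halved clusters was set beside that of other abundant clusters. The hexamer lay a median of 21 nt before the strongest position (middle 50% of clusters, 19 to 24 nt) in both sets. Halved clusters had a median width of 27 nt and 19 positions, against 31 nt and 22 positions in the others. At 62.6% of halved clusters a single hexamer was listed for all positions, against 49.99% of the others. Width, positions and hexamers were counted over positions pooled from all libraries, so they also depend on how many reads a cluster has. Halved clusters had the lower median level in every library, for example 7.24 CPM against 34.5 CPM in U1 AMO replicate 1. Whether these differences remain between clusters of equal level was not tested. The strongest position was the same in the AMO libraries as in untreated cells at 270 halved clusters (97.1%), against 93.6% of other abundant clusters and 86.9% of the 145 contrast clusters with at least 10 CPM in every AMO library. It had moved downstream at 4 and upstream at 4, by at most 21 nt. That position held a median of 44.3% and 48.4% of a cluster's reads with the U1 AMO and 44.8% and 50.9% with the scrambled AMO, against 48.0% and 58.7% in untreated cells. In untreated replicate 1 the value lay within the range of the AMO libraries, and in untreated replicate 2 above it.

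Neighbouring cleavage clusters were examined for levels that moved with those of the halved clusters or against them. A same-strand cluster of at least 1 CPM on average over the 6 libraries lay within 5 kb of 134 halved clusters (48.2%, 42.4 to 54.1), against 63.8% of other abundant clusters and 66.9% of the 145 contrast clusters. The share was 36.0%, against 55.7% of other abundant clusters, within 2 kb, and 52.9%, against 69.7%, within 10 kb. Of the 237 distinct neighbours, 219 were not themselves halved clusters. At 115 of the 219 (52.5%) all 4 AMO libraries lay below both untreated libraries, where the background over 29356 clusters of this level was 20.1%. They lay above at 2 of the 219, where the background was 19.7%. Neighbours of other abundant clusters were below in 19.1% and above in 19.4%. These are the same libraries as in the rule, so the shares are a description without a test.

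These shares varied with distance. Of the 32 pairs with the neighbour at most 0.5 kb downstream, 81.2% had the neighbour below untreated in all AMO libraries, and of the 38 with it at most 0.5 kb upstream 65.8%. At 2 to 5 kb the shares were 42.3% of 26 downstream pairs and 40.7% of 59 upstream pairs. With chromosomes 6 and 11 left out the share was 53.8% (84 of 156 neighbours), where the background without halved clusters was 18.6%. With all chromosomes and all libraries the background without halved clusters was 19.4%. Over all 219 the share was 63.5% without untreated replicate 1, where that background was 34.3%. It was 70.8% without untreated replicate 2, where that background was 30.5%. Around the 145 contrast clusters 7.03% of 185 neighbours were below and 42.2% above. These shares are not the mirror of those above, since neighbours with the contrast pattern were not left out. At 25 of the 185 the lowest AMO value was at least 2 times the higher untreated value, which places them above.

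**Figure D3:**
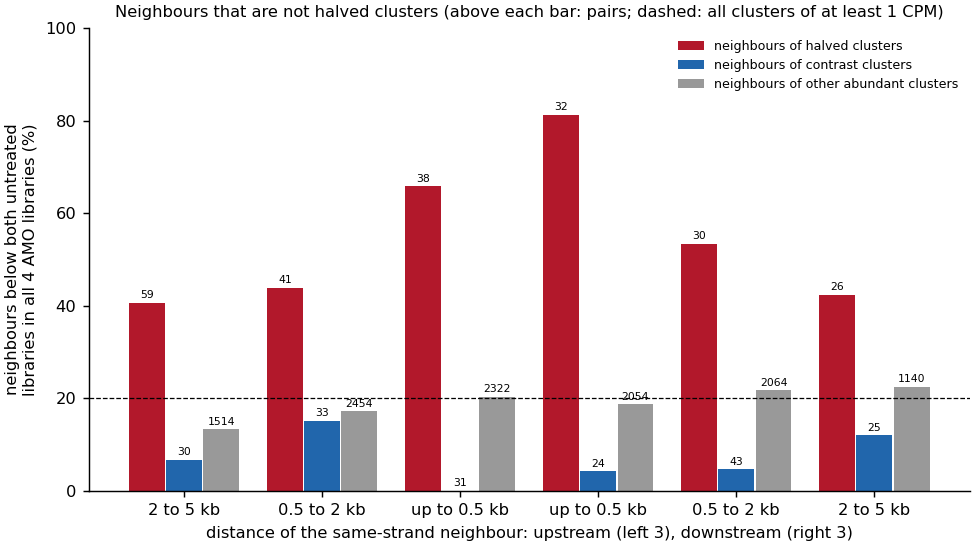
Share of neighbouring clusters (same strand, at least 1 CPM, vertical axis in percent) whose 4 AMO values all lie below both untreated values, by distance and side of the neighbour (horizontal axis). Red bars are neighbours of halved clusters that are not halved clusters themselves, blue neighbours of the 145 contrast clusters and grey neighbours of other abundant clusters; numbers give pairs and the dashed line the 20.1% of all clusters at that level. The red bars are highest within 0.5 kb, at 65.8% upstream and 81.2% downstream, and are above the line in every distance class.

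The 219 neighbours summed to 2179 and 2823 CPM with the U1 AMO and 2144 and 3147 CPM with the scrambled AMO, against 3424 and 3892 CPM in untreated cells. Their median log2 ratio of AMO to untreated was -0.70, against -0.02 for neighbours of other abundant clusters. Within a place, meaning a halved cluster and its neighbours, the halved cluster took a median of 69.2% and 67.0% of reads with the U1 AMO and 69.5% and 70.8% with the scrambled AMO, against 78.4% and 81.6% in untreated cells. That share was below untreated in all AMO libraries at 72 of 134 places (53.7%) and above it at 6 (4.48%). Around other abundant clusters these percentages were 23.0% and 12.7%. The rule favours a fall of the share at halved clusters, since it acts on the halved cluster alone.

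Around the most abundant halved cluster, the strongest neighbour on chromosome 6, chr6:122679136-122679176, 1254 nt upstream, was itself a halved cluster. It had 1.46 and 2.43 CPM with the U1 AMO and 2.72 and 3.37 CPM with the scrambled AMO, against 18.98 and 13.7 CPM in untreated cells. Next to the second, chr11:98854783-98854806 (minus strand), 506 nt upstream, had 4.76 and 3.95 CPM with the U1 AMO and 3.61 and 3.81 CPM with the scrambled AMO, against 8.12 and 9.61 CPM untreated. The neighbour on chromosome 11, which is not a halved cluster, was below untreated in all 4 AMO libraries. For the one on chromosome 6 the rule requires it.

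At 59 of the 134 places the strongest neighbour had at least 5 CPM in every AMO library. Of these 59, all 4 AMO libraries were below untreated at 34 and above untreated at 1. Over all clusters of at least 1 CPM, a lower minimum, the shares were 20.1% below and 19.7% above. Of the 134 strongest neighbours 16 were halved clusters themselves, which lie below by the rule. The 1 place with the neighbour above is on chromosome 15, where chr15:79252904-79252918 (minus strand) had 10.6 and 8.89 CPM with the U1 AMO and 9.83 and 7.84 CPM with the scrambled AMO, against 5.13 and 2.03 CPM in untreated cells. The halved cluster 4605 nt downstream of it, chr15:79248275-79248299, had 19.2 and 16.5 CPM with the U1 AMO and 29.2 and 22.0 CPM with the scrambled AMO, against 59.0 and 64.3 CPM untreated. The gain of the neighbour was smaller than the loss at the halved cluster in each AMO library.

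At the 3 places next in order the neighbour's AMO and untreated values overlapped. The cluster at chr8:113680587-113680640 (minus strand), upstream of the halved cluster chr8:113677197-113677263, had 17.5 CPM in each U1 AMO library and 22.6 and 20.5 CPM with the scrambled AMO, against 17.7 and 19.7 CPM untreated. Upstream of chr15:5170271-5170316 (plus strand), the cluster at chr15:5168316-5168347 had 48.9 and 69.1 CPM with the U1 AMO and 68.4 and 89.6 CPM with the scrambled AMO, against 60.1 and 47.6 CPM untreated. At chr3:38348570-38348583 (minus strand), downstream of the halved cluster chr3:38350968-38351020, there were 5.02 and 6.13 CPM with the U1 AMO and 6.70 and 5.45 CPM with the scrambled AMO, against 6.17 and 3.95 CPM untreated. The halved clusters themselves stood apart from untreated at all 3, as the rule requires. For the one on chromosome 8 the values were 36.9 and 38.4 CPM with the U1 AMO and 49.4 and 50.1 CPM with the scrambled AMO, against 116 and 157 CPM untreated. For the one on chromosome 15 they were 5.46 and 7.48 CPM with the U1 AMO and 8.01 and 8.10 CPM with the scrambled AMO, against 17.8 and 29.2 CPM untreated.

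By chromosome the halved clusters were unevenly spread. Chromosome 11 held 46 of the 278, which was 5.05% of its 911 abundant clusters (3.81 to 6.67). Chromosome 6 held 25, or 6.02% of 415 (4.11 to 8.74), while all other chromosomes together had 2.65%. Chromosome 1 had 5 of 512 (0.977%, 0.418 to 2.27). Abundant clusters of chromosomes 11 and 6 were lower in the AMO libraries also outside the halved set, with a median log2 ratio of -0.41 on chromosome 11 and -0.32 on chromosome 6, against -0.23 over all chromosomes. Without the halved clusters, chromosome 11 held 11.4% and 10.8% of reads outside chromosome M with the U1 AMO and 11.5% and 10.7% with the scrambled AMO, against 12.9% and 12.4% in untreated cells. Chromosome 6 held 4.21% and 4.05% with the U1 AMO and 4.45% and 4.14% with the scrambled AMO, against 4.54% and 5.05% untreated. On both chromosomes all 4 AMO libraries were below both untreated ones. This was not particular to them. It also held on chromosome 16, where 1.67% of abundant clusters were halved, and on chromosome Y. On chromosomes 1, 5 and 14 all 4 AMO libraries were above both untreated ones.

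When each library's levels were centred on the median of each chromosome, an alternative chosen after seeing the data, the rule gave 259 clusters, of which 225 were among the 278. The share was then 2.53% on chromosome 11 and 3% on chromosome 6, against 2.84% over all chromosomes. Centring removes a chromosome-wide shift by construction. Without untreated replicate 1 the rule took 15.0% of the abundant clusters of chromosome 11 and 15.8% of those of chromosome 6, against 12.5% over all. Without untreated replicate 2 it took 9.35% and 8.52%, against 5.65%. In 20 Mb windows the clusters outside the halved set had medians of -0.52 to -0.18 along chromosome 11 and -0.42 to -0.08 along chromosome 6. Over all chromosomes their median was -0.23, so negative windows are not particular to these chromosomes. Other chromosomes were not divided into windows. What moves chromosome-wide between the AMO and untreated libraries was not tested.

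**Figure D4:**
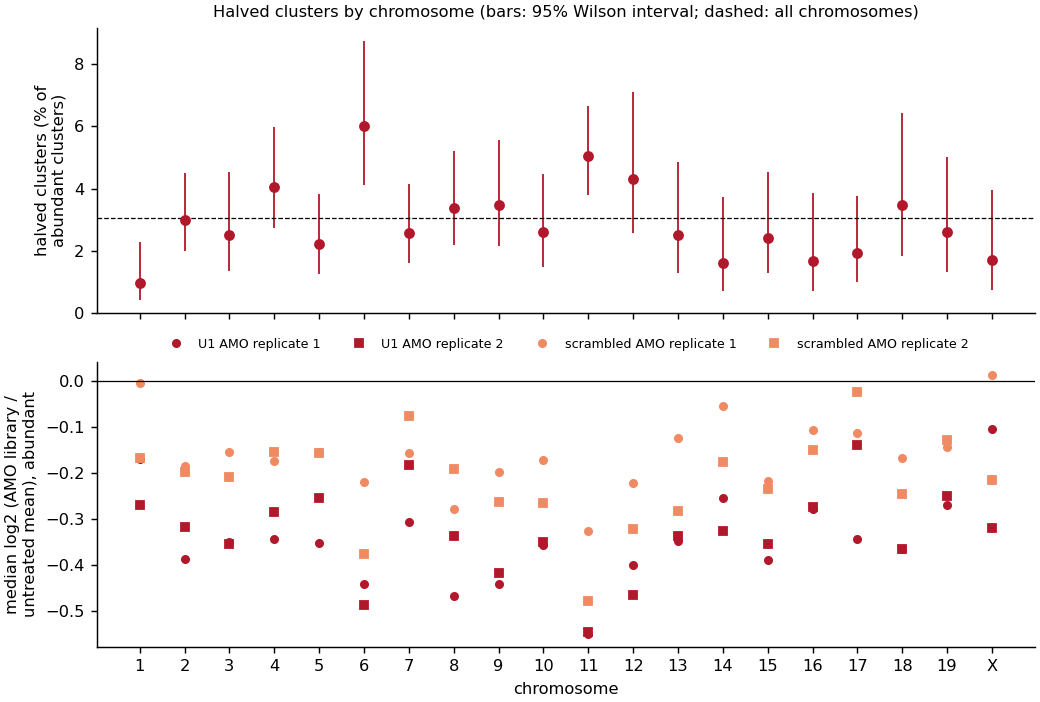
Upper panel, share of abundant clusters that are halved clusters on each chromosome (percent, with 95% Wilson intervals; the dashed line is the 3.05% over all). Lower panel, median log2 ratio of each AMO library to the untreated mean over the abundant clusters of each chromosome, red for the U1 AMO and orange for the scrambled AMO, circles for replicate 1 and squares for replicate 2. Of the chromosomes shown, which leave out Y with its 4 abundant clusters, 6 and 11 have the highest shares and 11 has the lowest medians in all 4 AMO libraries.

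The contrast set, chosen for the opposite pattern, is described beside the halved clusters. Of its 18028 clusters 12195 had no reads in either untreated library, and 145 had at least 10 CPM in every AMO library. The most abundant of these, chr8:96697429-96697498 (plus strand, AATAAA), had 6374 and 10401 CPM with the U1 AMO and 3779 and 6299 CPM with the scrambled AMO, against 1871 and 1744 CPM in untreated cells. The steepest, chr1:136430699-136430719 (plus strand, ATTAAA), had 57.6 and 34.8 CPM with the U1 AMO and 13.9 and 12.4 CPM with the scrambled AMO, against 0 and 0.380 CPM untreated. At both the U1 AMO was above the scrambled AMO within each run. Over the 145 it was higher in both runs at 46.2% and lower in both at 19.3%, whereas at the halved clusters it was higher in 11.5% and lower in 59.7%, and at all abundant clusters in 16.1% and 57.4%. The 6-library fit called 1 of the 145 higher and 0 of the 278 halved clusters, where it called 0.667% of all clusters and 0.0438% of abundant clusters higher. The fit with the run as a term called 26 of the 145 higher (17.9%) and 2 lower. Of the 278 halved clusters it called 0 higher and 17 lower. It called 13.4% of all clusters higher and 2.34% lower, and 2.75% of abundant clusters higher and 10.7% lower. Whether the contrast set and the halved clusters differ in U1 AMO against scrambled AMO was not tested.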

How the data were processed

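For each of the 6 libraries (2 per group) the authors deposited cleavage positions with their strand and raw read counts, whole numbers that were not normalized. Per the submitters' processing notes, reads were handled with cutadapt and Bowtie on mm9; the sources used here give no versions and no filter for the positions. Every position carries a hexamer (36 kinds), the distance in nt from it to the position (6 to 40) and a further deposited score, a whole number from 0 to 10 that no source used here explains and that enters no result.

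Positions from all libraries outside chromosome M (2333467) were pooled, and those on the same strand at most 24 nt apart were joined. CPM was computed from the deposited counts and the whole library total, which ranged from 15752080 to 62257923 reads. The main test was edgeR 4.0.16's quasi-likelihood test (R 4.3.3) with TMM and filterByExpr over all 6 libraries and 79917 clusters, with Benjamini-Hochberg adjusted p under 0.05 called. DESeq2 1.42.0 was an alternative. Each standard error is the fold change (log2) over the square root of F. The labels give biological replicates without saying which cultures they came from. U1 AMO and scrambled AMO libraries of the same number shared a run, per the read names in the files. Their differences between replicates correlated at r = 0.82 over the 278 clusters, so a fit of these 4 libraries with the run as a term was also made. It recovered 84% of 2-fold and 100% of 4-fold changes of U1 AMO against scrambled AMO in simulated counts among 68692 clusters, with 10 false calls. Changes were placed only at clusters averaging at least 10 CPM in these 4 libraries. The median halved cluster was below that, at 7.24 to 8.73 CPM, so these rates need not hold for the halved clusters. Shares, medians and figures came from Python 3.11.15 (pandas 2.3.3, matplotlib 3.10.9).

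Clusters, lists, tests and the naming rule were chosen with earlier results of these data known. Named were the 8 halved clusters highest in untreated cells, the 8 with the lowest ratio, 3 on each side of the threshold, the 4 lowest calls of U1 AMO against scrambled AMO, the 4 with the highest ratio of the lowest AMO value to the higher untreated value at the strongest neighbour, among neighbours of at least 5 CPM in every AMO library, and contrast clusters; a few of these are covered by their ranges. Gene lists were not used, since the files pair no genes with positions and no mm9 annotation was used here. Alternatives covered scaling, joining distance, level, fold, filter, tool, replicate block and leaving out each library.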

Additional observations from a re-analysis of the deposited data

Results flagged for a closer look

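Chromosome M was left out of the clusters, and its share of all reads was higher in each AMO library than in either untreated library. It was 2.15% and 1.22% with the U1 AMO and 1.60% and 0.853% with the scrambled AMO, against 0.617% and 0.352% in untreated cells. This signal lies outside the measurements of the report. Scaling each library to its total without chromosome M gave 272 halved clusters, all of them among the 278.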

How the results depend on the processing

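The number of halved clusters was 165 with a minimum of 20 CPM and 45 with a fold of 3. Leaving out single libraries gave 284 to 1298 halved clusters and 21903 to 40628 contrast clusters. Halved clusters called for U1 AMO against untreated ranged from 3 to 163 without single libraries. The share of all clusters called lower moved with them. It was 0.0162% without U1 AMO replicate 2, which gave the 3, and 0.926% without untreated replicate 1, which gave the 163. These fits leave a group with a single library, so the counts are a description from which nothing is read. For scrambled AMO against untreated they numbered 261 with DESeq2 and 51 without a filter on low counts, where 1% and 0.0190% of all clusters were called lower. The share of chosen clusters met again in the other replicate was 16.5% when chosen on replicate 2. Within 2 kb, 36.0% of halved clusters had a neighbour, and 60.6% of those neighbours were below untreated. Leaving out single libraries gave 53.4% to 70.8% for the share of neighbours below untreated.

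The replicate block was run for all 3 comparisons. In the 4 AMO libraries, where the number is also the run, it gave 17 calls of U1 AMO against scrambled AMO. In 6 libraries the replicate block gave 0 calls for each comparison, although untreated libraries share only a number with the others (r = -0.20 between U1 AMO and untreated and -0.27 between scrambled AMO and untreated). With the untreated numbers crossed, a pairing added after seeing the data, U1 AMO against untreated had 277 calls, with 3.08% of all clusters called lower, and the other comparisons 0. Depth limits the lowest values most: the smallest count at a halved cluster was 9 reads, in U1 AMO replicate 1.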

Other observations

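Halved clusters came from both strands, 144 from the plus and 134 from the minus strand. Within 50 kb on the same strand, 26 of them formed 13 pairs, so the 278 lie at 265 separate places. The nearest pair, at chr12:73751321-73751413 (minus strand), was 32 nt apart and the farthest, at chr11:4080615-4122425 (plus strand), 41720 nt.

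On the opposite strand, 54 halved clusters (19.4%) had a cluster of at least 1 CPM within 5 kb, against 24.6% of other abundant clusters. Of these 96 neighbours, 26.04% were below both untreated libraries in all AMO libraries and 16.7% above, where the shares over all clusters of this level were 20.1% and 19.7%. On the same strand 52.5% were below.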
